A study of Oryza sativa Indica Group with 24 samples.

Results

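A set of 100 genes of the developing rice grain had more transcript in the waxy cultivar RD6 at the first stage sampled and more in the high-amylose cultivar RD57 at the last. They were chosen by their measured expression out of 26362 genes. Genes first had to be above 0 in all 24 libraries and to have no group mean of 500 FPKM or more, which left 14790 eligible genes. FPKM counts sequenced fragments relative to the length of the transcript and the size of the library. For each gene the mean log2(FPKM + 0.5) of RD6 was subtracted from that of RD57 at each number of days post-anthesis (DPA). A gene qualified with a difference of -0.5 or lower at 7 DPA and of 0.5 or higher at 28 DPA, and 173 genes did. The 100 with the highest score, the smaller of the 2 sizes, are described here and called the members.

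The libraries came from grains of RD57 and RD6, both Oryza sativa indica. Each cultivar was sampled at 4 stages (7, 14, 21 and 28 DPA) in 3 biological replicates. Plants were grown in pots in a net house, and the upper grains of a tagged main-stem panicle were taken. The samples are labelled endosperm, while RNA was extracted from grains. Each grain type was represented by 1 cultivar, so amylose type and the rest of the genetic background cannot be told apart. In such bulk samples, fewer cells of a type and less RNA per cell cannot be told apart either.

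A cereal endosperm first multiplies its nuclei and cells, then fills with starch and storage protein, and at last dries while the embryo and the aleurone layer stay alive. Transcripts of each phase replace those of the one before, so a gene can be at different points of its course in 2 cultivars sampled on the same day. Waxy rice lacks most of the granule-bound starch synthase that makes amylose, and high-amylose rice has an active form of it. The table lists genes by identifiers of an assembly (XLOC numbers) and pairs none of them with a name. No identifier matched the gene table at hand, so no role can be given to any member, and neither pathway lists nor markers of endosperm, aleurone, embryo or seed coat could be placed.

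Among the members, expression in RD57 was lower at 7 DPA and higher at 28 DPA by construction. On the log2 scale their median difference, RD57 minus RD6, was -0.96 at 7 DPA (range, -3.71 to -0.61) and 0.38 at 14 DPA (range, -2.28 to 2.56). It was 0.35 at 21 DPA (range, -3.83 to 1.92) and 0.84 at 28 DPA (range, 0.61 to 3.14). Over the eligible genes the medians were -0.01, 0.00, 0.05 and 0.02. The values at 7 and 28 DPA selected the members and are given with no test. Those at 14 and 21 DPA played no part beyond the 2 conditions for eligibility, but they are not independent of the choice. Over the eligible genes the 14 DPA difference had r = 0.43 with that at 7 DPA and 0.41 with that at 28 DPA. The 21 DPA difference had r = 0.31 with that at 7 DPA and 0.62 with that at 28 DPA. The difference was at least 1 in size in 42 members at 7 DPA and in 29 members at 28 DPA. At the edge of the set stood XLOC_008245 and XLOC_029617, with scores of 0.612 and 0.611, and just outside it were XLOC_025261 and XLOC_032141, with scores of 0.608 and 0.607.

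**Figure D1:**
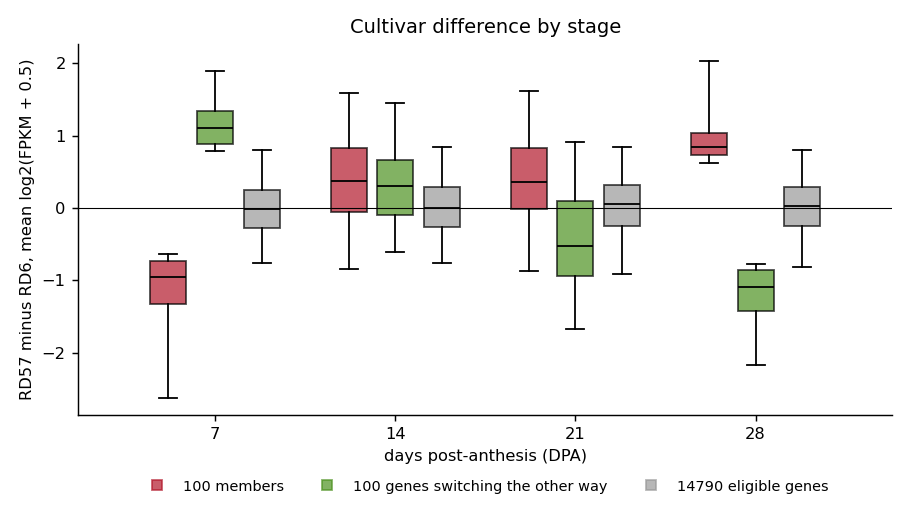
Difference between RD57 and RD6 in mean log2(FPKM + 0.5) at each DPA for the 100 members, for the 100 genes switching the other way and for the 14790 eligible genes (box, quartiles and median; whiskers, 5th to 95th percentile). The members' median is -0.96 at 7 DPA and 0.84 at 28 DPA, the stages that chose them, and lies between 0.35 and 0.38 at 14 and 21 DPA.

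The 3 RD57 libraries and the 3 RD6 libraries did not overlap in 86 members at 7 DPA, in 77 members at 28 DPA, and in 69 members at both. Of the eligible genes, 15.9% had every RD57 library below every RD6 library at 7 DPA, and 15.5% had every RD57 library above every RD6 library at 28 DPA. No share of eligible genes is given for both stages together, so the 69 has no background beside it. Since the rule used these contrasts, the counts describe the members and test nothing. The switch was thus without overlap for most members, while for the other 31 the libraries of the cultivars overlapped at 7 DPA, at 28 DPA or at both.

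The members were of middling abundance. Their mean over the 24 libraries ranged from 2.39 to 201 FPKM, with a median of 15.0 FPKM, against 11.8 FPKM over the eligible genes. The highest was XLOC_003046. It had 109, 97.4 and 91.4 FPKM at 7 DPA in RD57, against 487, 591 and 329 FPKM in RD6, and at 28 DPA 342, 201 and 299 FPKM in RD57, against 174, 143 and 168 FPKM in RD6. The cultivars did not overlap at either stage, and the smallest RD6 library at 7 DPA held about 3-fold the largest RD57 library.

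The median member was higher at each later stage in RD57 and moved up and down in RD6. In RD57 the members' median level over the 4 stages was 6.87, 12.4, 15.9 and 22.0 FPKM. In RD6 it was 15.5, 9.07, 14.7 and 11.0 FPKM, so that it was highest at 7 DPA and lowest at 14 DPA. The median eligible gene stayed between 10.3 and 11.0 FPKM in RD57 and between 10.1 and 10.7 FPKM in RD6. RD57 was highest at 28 DPA in 63 members (30.5% of eligible genes), and RD6 was highest at 7 DPA in 43 members (28.4% of eligible genes). The 7 and 28 DPA values chose the members and favour both peaks, so these levels and counts are descriptions.

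From 7 to 28 DPA the difference turned in 2 main ways. In 47 members the mean was higher at 28 than at 7 DPA in RD57 and lower in RD6, and in 40 it was higher at 28 DPA in both cultivars, by more in RD57. The other 13 had lower means at 28 DPA in both. At 14 DPA 61 members had a higher mean than at 7 DPA in RD57 and a lower one in RD6, while RD57 was still lower than RD6 in 26 members. The median step from 7 to 14 DPA was 0.79 in RD57 and -0.54 in RD6, and from 21 to 28 DPA it was 0.42 in RD57 and -0.16 in RD6. These steps share the 7 or 28 DPA values with the rule, which favours steps in these directions, and were not tested.

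Within this set of 100, 2 libraries stood apart. In RD57 replicate 2 at 14 DPA, 14 members were at least 1 log2 unit above both other replicates, against 0.453% of eligible genes. In RD6 replicate 2 at 21 DPA, 18 members were, against 0.717% of eligible genes. The 2 lists shared 6 members, 42.9% of the first and 33.3% of the second. In the other 22 libraries 0 to 4 members were that far above their replicates. Where a count without these 2 libraries was taken, it is given below. The median SD within groups was 0.43 on the log2 scale in the members, against 0.28 over the eligible genes and 0.65 in the 100 genes chosen by the same rule with the signs turned.

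**Figure D2:**
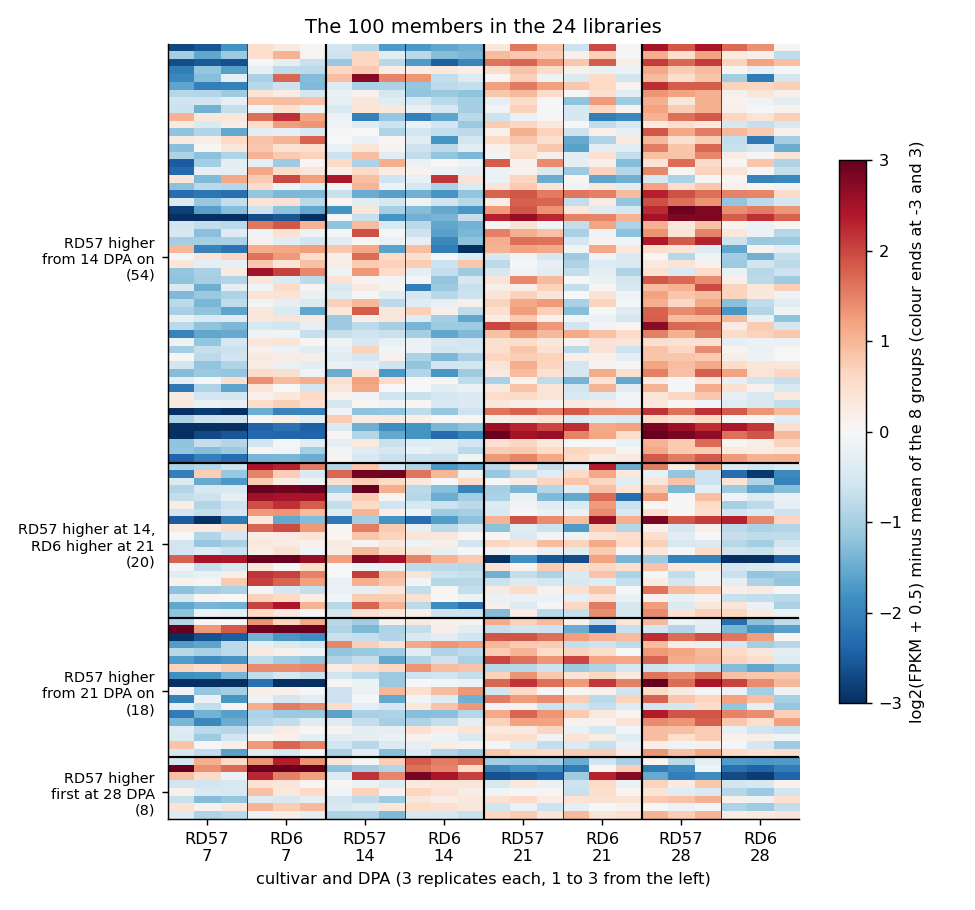
The 100 members (rows, in 4 classes by the sign of the cultivar difference at 14 and 21 DPA, with the number of members) in the 24 libraries (columns), as log2(FPKM + 0.5) minus the mean of the gene's 8 groups. At 7 DPA the RD6 libraries are redder than the RD57 libraries in all 4 classes, at 28 DPA the RD57 libraries are redder, and replicate 2 of RD57 at 14 DPA and of RD6 at 21 DPA stand out from their neighbours in part of the rows.

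The member with the highest score, XLOC_040726, shows both the switch and these libraries. At 7 DPA it had 2.99, 3.15 and 3.79 FPKM in RD57, against 35.6, 32.3 and 18.4 FPKM in RD6. At 14 DPA it had 3.08, 11.2 and 3.85 FPKM in RD57, against 3.06, 1.50 and 1.78 FPKM in RD6. At 21 DPA it had 3.34, 7.56 and 3.58 FPKM in RD57, against 4.59, 33.1 and 1.86 FPKM in RD6. Replicate 2 was the highest library of its group at both of these stages in RD57, and in RD6 at 21 DPA it alone reached the level of 7 DPA. At 28 DPA the 3 RD57 libraries held 18.4, 7.19 and 14.1 FPKM, against 4.34, 4.02 and 4.47 FPKM in RD6, again without overlap. Its differences at 14 and 21 DPA, 1.16 and -0.56, did not pass the test (limma, adjusted p = 0.230 and 0.655).

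The second score belonged to XLOC_008518, whose difference changed sign at every stage. Its 3 libraries had 3.69, 28.6 and 7.36 FPKM in RD57 at 7 DPA, against 48.6, 28.3 and 12.3 FPKM in RD6, and they overlapped. At 14 DPA they had 56.7, 127 and 129 FPKM in RD57, against 52.5, 34.3 and 15.2 FPKM in RD6. At 21 DPA they had 7.36, 10.0 and 13.0 FPKM in RD57, against 25.9, 37.5 and 21.0 FPKM in RD6, so every RD57 library lay below every RD6 library. At 28 DPA the order was the opposite, with 14.3, 7.27 and 10.8 FPKM in RD57, against 3.04, 1.84 and 4.03 FPKM in RD6. RD57 was higher at 14 DPA by 1.68 ± 0.60 (log2, SE, limma adjusted p = 0.0432), and at 21 DPA the difference was -1.42 ± 0.60 (adjusted p = 0.0877).

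Whether members already differed between the cultivars at 14 DPA was tested with limma over all 26362 genes. The 14 DPA values did not choose the members but are correlated with those that did. A share that departs from the background can therefore follow from the choice. RD57 was higher in 19 members (adjusted p of at most 0.05), against 8.26% of eligible genes and 15.1% of all genes. RD57 was lower in 7 members, against 7.77% of eligible genes and 13% of all genes, a share near the background. The difference was above 0 in 74 members and in 7460 of the 14790 eligible genes. Its median of 0.38 in the members compares with 0.00 over the eligible genes. With only the 14 DPA libraries in the fit, 2 members passed as higher and 4 as lower. The 19 became 6 without RD57 replicate 2, 9 without RD6 replicate 2, 11 without RD6 replicate 3 and 9 without the 2 libraries that stood apart, where the median was 0.29 and 69 members were above 0.

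The largest positive differences at 14 DPA were those of XLOC_015832 and XLOC_008473. XLOC_015832 had 1.62, 50.7 and 8.94 FPKM in RD57, against 2.02, 1.31 and 0.601 FPKM in RD6. The groups overlapped, and 1 RD57 library stood far above the rest. Its difference was 2.56 ± 0.74 (log2, SE, limma adjusted p = 0.0118), and 1.38 without RD57 replicate 2 (adjusted p = 0.0979). The RD6 value of 1.31 equals the mean of the other 2 RD6 replicates and was filled in by the authors' processing.

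XLOC_008473 had 50.1, 300.3 and 180.2 FPKM in RD57, against 51.6, 24.2 and 18.8 FPKM in RD6. Here 2 of the 3 RD57 libraries lay above every RD6 library. Its difference was 2.26 ± 0.61 (limma adjusted p = 0.00680), and 1.71 without RD57 replicate 2 (adjusted p = 0.0577). With only the 14 DPA libraries in the fit the adjusted p was 0.225 for XLOC_015832 and 0.104 for XLOC_008473. At 7 DPA the same gene had 30.2, 33.6 and 33.0 FPKM in RD57, against 365, 481 and 182 FPKM in RD6.

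The largest negative differences at 14 DPA were those of XLOC_003622 and XLOC_038490, in which RD57 was still below RD6. XLOC_003622 had 1.90, 2.23 and 2.57 FPKM in RD57, against 17.3, 15.0 and 7.89 FPKM in RD6, with no overlap (-2.28 ± 0.60, limma adjusted p = 0.00606). At the stages that chose it, the cultivars overlapped. At 28 DPA this gene had 0.795, 1.01 and 4.53 FPKM in RD57, against 0.696, 0.563 and 0.830 FPKM in RD6. All but 1 of these libraries were near the floor of 0.5 FPKM. XLOC_038490 had 5.40, 3.82 and 6.98 FPKM in RD57, against 15.4, 12.5 and 14.0 FPKM in RD6 (-1.33 ± 0.35, limma adjusted p = 0.00632). In each of these XLOC_038490 groups 1 value was the mean of the other 2, and with such filled values left out of the fit the adjusted p was 0.0787. Filled values of this kind were found in 10 members, in 21 of their groups, and 6 of the 21 belong to XLOC_038490.

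At 21 DPA RD57 was higher in 29 members by the same limma test, against 10.3% of eligible genes and 13.6% of all genes. Over the eligible genes this difference had r = 0.62 with that at 28 DPA, so the choice favours members higher in RD57 here. RD57 was lower in 1 member, against 7.09% of eligible genes and 15.5% of all genes. The difference was above 0 in 72 members, with a median of 0.35. Among the 14790 eligible genes it was above 0 in 8103, with a median of 0.05. Among the members that passed as higher the largest difference was 1.92, so none of these reached the added limit of the study, a size of 2 on the log2 scale, and the 1 member that passed as lower did. With only the 21 DPA libraries in the fit, 19 members passed as higher and 3 as lower. The 29 became 19 without RD57 replicate 2, 18 without RD6 replicate 3 and 35 without the 2 libraries that stood apart, and without RD6 replicate 1 the count of lower members was 3.

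The 2 libraries bear on the 21 DPA difference in the other direction than on the one at 14 DPA. Without RD6 replicate 2, the median difference at 21 DPA was 0.55 and RD57 was higher in 87 members. Over the 14790 eligible genes the median was then 0.05, and RD57 was higher in 8069.

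XLOC_020340 and XLOC_042305 had the largest positive differences at 21 DPA. XLOC_020340 had 10.2, 7.34 and 6.43 FPKM in RD57, against 1.41, 3.00 and 1.10 FPKM in RD6 (1.92 ± 0.48, limma adjusted p = 0.00364). XLOC_042305 had 21.1, 17.2 and 12.7 FPKM in RD57, against 3.12, 4.53 and 4.96 FPKM in RD6 (1.89 ± 0.30, limma adjusted p = 3.81e-05). In both, every RD57 library lay above every RD6 library. A week earlier XLOC_042305 had 2.00, 2.59 and 2.18 FPKM in RD57, against 1.52, 2.04 and 2.06 FPKM in RD6, which differed by 0.22 (adjusted p = 0.729).

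The 1 member lower in RD57 at 21 DPA was XLOC_034663. It had 1.94, 2.08 and 2.38 FPKM in RD57, against 6.64, 73.0 and 98.5 FPKM in RD6 (-3.83 ± 0.71, limma adjusted p = 0.000218). All RD57 libraries lay below all RD6 libraries, and RD6 spread more than 10-fold. At 28 DPA the transcript was low in both cultivars, with 4.74, 3.06 and 3.60 FPKM in RD57, against 1.82, 1.57 and 2.35 FPKM in RD6, so its place among the members rests on a small difference between low values.

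**Figure D3:**
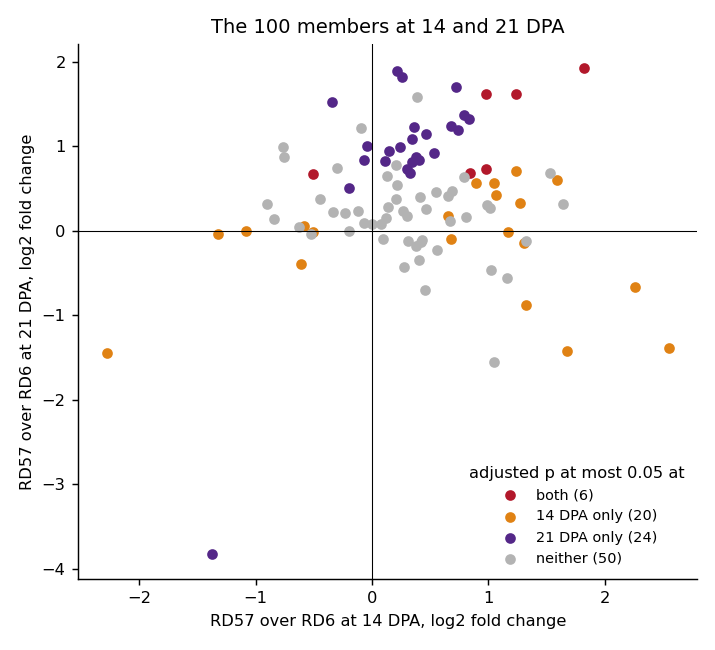
Log2 fold change of RD57 over RD6 at 14 DPA (x axis) and at 21 DPA (y axis) for the 100 members, coloured by the stages at which the limma adjusted p was at most 0.05. 50 members passed at neither stage, and 5 of the 6 that passed at both were higher in RD57 at both.

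RD57 passed as higher at both stages in 5 members (2.43% of eligible genes), among them XLOC_020340 and XLOC_005667. It was higher at 14 DPA alone in 14 members and at 21 DPA alone in 23. Of eligible genes 8.26% passed as higher at 14 DPA and 10.3% at 21 DPA, those that passed at both included. XLOC_014258, singled out after its values were seen, was the 1 member that passed as lower at 14 DPA and as higher at 21 DPA. It had 24.8, 18.6 and 18.8 FPKM in RD57 at 14 DPA, against 31.6, 26.7 and 30.3 FPKM in RD6, and 28.4, 27.6 and 36.0 FPKM in RD57 at 21 DPA, against 19.7, 15.7 and 21.7 FPKM in RD6. Both stages were without overlap, and the differences were -0.51 ± 0.17 and 0.67 ± 0.17 (limma adjusted p = 0.0328 and 0.00483). Across the 100 members the differences at 14 and 21 DPA had r = 0.10 (Pearson) and rho = 0.01 (Spearman). This is a description over genes measured in the same libraries, which are not independent points, and over the eligible genes r was 0.30.

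By the sign of the difference at 14 and 21 DPA the members fall into 4 classes. The first, with 54 members (30.1% of eligible genes have these signs), had RD57 higher from 14 DPA on. A second class of 20 members (20.4% of eligible genes) had RD57 higher at 14 DPA and RD6 higher at 21 DPA. In 18 members (24.7%) RD57 was higher from 21 DPA on, and in 8 members (24.8%) only at 28 DPA. The signs at 14 and 21 DPA define the classes and support nothing about them. They also depend on the 2 libraries that stood apart. Without these, RD57 was higher in 69 members at 14 DPA, against 74 with them. At 21 DPA it was higher in 87 members, against 72 with them. Part of the members with RD6 higher at 21 DPA, as in the second class, thus owe that sign to RD6 replicate 2. Class counts without the 2 libraries are not given.

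In the first class the median difference over the 4 stages was -0.88, 0.54, 0.68 and 0.88, so the median rose with each stage. Not every member followed it, and in XLOC_035861 the difference was 0.55 at 14 DPA and 0.46 at 21 DPA. Of the 54 members of the class, 12 passed at 14 DPA and 24 at 21 DPA, against 19.7% and 23.9% of the eligible genes with the same signs. A class can pass only in the direction of the sign that defines it. The highest score of the first class was that of XLOC_035861, which had 0.597, 0.739 and 1.59 FPKM in RD57 at 7 DPA, against 10.1, 8.28 and 6.95 FPKM in RD6. At 28 DPA it had 39.9, 25.8 and 39.6 FPKM in RD57, against 23.1, 18.4 and 7.28 FPKM in RD6. Its RD57 libraries at 7 DPA were thus near the floor of 0.5 FPKM, and it was well expressed in both cultivars late.

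The second class changed sign at every stage, with median differences of -1.38, 0.85, -0.29 and 0.85 at the 4 stages. It had the largest median at 7 DPA of the 4 classes, and XLOC_040726 and XLOC_008518 belong to it. At 14 DPA 7 of its 20 members passed as higher in RD57 (11.4% of eligible genes with these signs), and at 21 DPA 0 passed in limma in either direction (12.1% of those genes passed as lower), with 2 at an unadjusted p under 0.05. In the third class the medians were -0.96, -0.34, 0.44 and 0.80, with 2 members that passed as lower at 14 DPA (11.1% of eligible genes with these signs) and 5 as higher at 21 DPA (12.7%). In the fourth they were -0.84, -0.85, -0.03 and 0.82, with 5 members that passed as lower at 14 DPA (20.3% of eligible genes with these signs) and 1 at 21 DPA (18.6%).

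**Figure D4:**
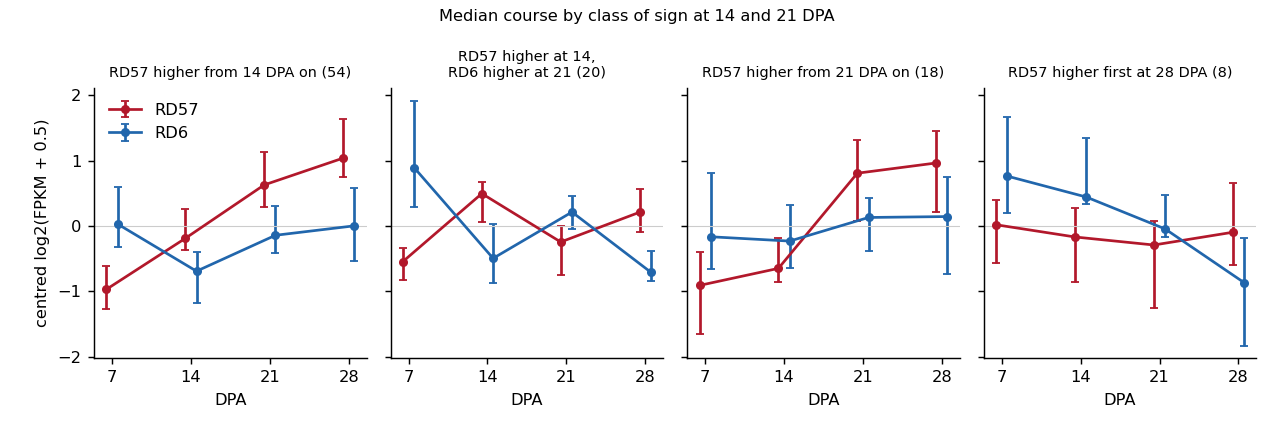
Median and quartiles of the members' group means, as log2(FPKM + 0.5) minus the mean of the gene's 8 groups, by DPA in RD57 and RD6 for the 4 classes of members. In the first class the RD57 median is higher at each later stage, with the median difference from RD6 at -0.88, 0.54, 0.68 and 0.88.

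The 7 DPA difference chose the members, so the next values are descriptions. In 11 members the 7 DPA difference was -2 or lower, and in all 11 the 14 DPA difference was above 0, with a median of 1.32 (0.41 to 2.56). In the other 89 it was above 0 in 63, with a median of 0.31. Without RD57 replicate 2 at 14 DPA, 10 of the 11 were above 0 with a median of 0.92, and 59 of the 89 with a median of 0.24. Over the 100 members r between the 7 and 14 DPA differences was -0.42, and -0.28 without that library, while over the eligible genes it was 0.43. At 21 DPA the median was -0.12 in the 11 and 0.40 in the 89, and 0.53 and 0.55 without RD6 replicate 2.

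From 14 to 21 DPA more members rose than fell in both cultivars. The rule did not use this interval, but the cultivar differences at both of its ends are correlated with those that chose the members. Shares that depart from the background can therefore follow from the choice. In RD57, 42 members were higher at 21 DPA (32.1% of eligible genes, 27.7% of all genes) and 15 were lower (32.1% of eligible genes, 35.3% of all genes). In RD6, 38 members were higher at 21 DPA (27.5% of eligible genes, 25.4% of all genes) and 12 were lower (31% of eligible genes, 31.3% of all genes). The median change was 0.51 in RD57 and 0.44 in RD6, against 0.00 and -0.06 over the eligible genes. The lower count in RD57 was 9 without RD57 replicate 2 at 14 DPA. Of the 42 members higher at 21 DPA in RD57, 32 were also higher at 21 DPA in RD6 (23% of eligible genes rose in both cultivars), and XLOC_014258 was the 1 member higher in RD57 and lower in RD6.

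The steepest rises in RD57 were those of XLOC_018314 and XLOC_005667. XLOC_018314 had 51.0, 42.8 and 34.2 FPKM in RD57 at 21 DPA, against 5.99, 2.62 and 1.88 FPKM at 14 DPA (3.55 ± 0.41, limma adjusted p = 3.43e-07). In RD6 it had 39.9, 18.6 and 19.6 FPKM at 21 DPA, against 2.05, 2.87 and 3.18 FPKM at 14 DPA. That rise was 2.98 ± 0.41 (limma adjusted p = 4.37e-06). The cultivar difference changed by 0.57 between the stages (limma adjusted p = 0.534). At 7 DPA its RD57 libraries, with 0.617, 0.572 and 0.594 FPKM, were near the floor of 0.5 FPKM. At 28 DPA the cultivars overlapped, with 39.5 FPKM in the lowest RD57 library and 46.8 FPKM in the highest RD6 library. XLOC_005667 had 152, 111 and 119 FPKM in RD57 at 21 DPA, against 19.6, 10.3 and 6.30 FPKM at 14 DPA (3.48 ± 0.36, limma adjusted p = 6.46e-08). XLOC_005667 rose in RD6 as well, with 54.7, 44.3 and 28.1 FPKM at 21 DPA, against 5.16, 3.48 and 4.44 FPKM at 14 DPA (3.10 ± 0.36, limma adjusted p = 4.16e-07). RD57 was ahead at 14 DPA by 1.24 ± 0.36 and at 21 DPA by 1.62 ± 0.36 (limma adjusted p = 0.0111 and 0.00124). This gene reached 198, 138 and 125 FPKM in RD57 at 28 DPA, against 61.4, 72.4 and 38.2 FPKM in RD6.

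In RD6 the steepest rise was that of XLOC_002138, which had 14.5, 47.2 and 16.2 FPKM at 21 DPA, against 1.11, 1.98 and 2.85 FPKM at 14 DPA (3.27 ± 0.53, limma adjusted p = 2.90e-05). The RD6 value of 1.98 FPKM at 14 DPA equals the mean of the other 2 replicates and was filled in. Replicate 2 of 21 DPA, one of the 2 libraries that stood apart, was again the highest. Without them the rise was 2.74 (adjusted p = 0.000308). In RD57 the same gene had 15.4, 29.1 and 20.4 FPKM at 21 DPA, and the cultivars differed by -0.09 at that stage.

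The deepest falls were those of XLOC_007117 and XLOC_034663 in RD57. XLOC_007117 had 1.59, 4.56 and 2.58 FPKM in RD57 at 21 DPA, against 42.0, 123 and 101 FPKM at 14 DPA (-4.66 ± 0.67, limma adjusted p = 4.93e-06). In RD6 it had 2.36, 41.3 and 6.40 FPKM at 21 DPA, against 50.4, 36.9 and 31.0 FPKM at 14 DPA (-2.06 ± 0.67, adjusted p = 0.0127). RD6 replicate 2 thus stayed at the 14 DPA level, and without it the change in RD6 was deeper, at -3.14. Without RD6 replicate 1 at 21 DPA the change in RD6 was -1.20 and its adjusted p 0.119. With only the RD6 groups of 14 and 21 DPA in the fit the adjusted p was 0.146. XLOC_034663 had 1.94, 2.08 and 2.38 FPKM in RD57 at 21 DPA, against 10.7, 66.2 and 40.7 FPKM at 14 DPA (-3.58 ± 0.71, adjusted p = 0.000190). In RD6 the deepest fall was that of XLOC_038490, with 1.11, 2.48 and 1.80 FPKM at 21 DPA, against 15.4, 12.5 and 14.0 FPKM at 14 DPA (-2.70 ± 0.35, limma adjusted p = 2.15e-06). In both of these groups the last value equals the mean of the other 2 and was filled in.

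**Figure D5:**
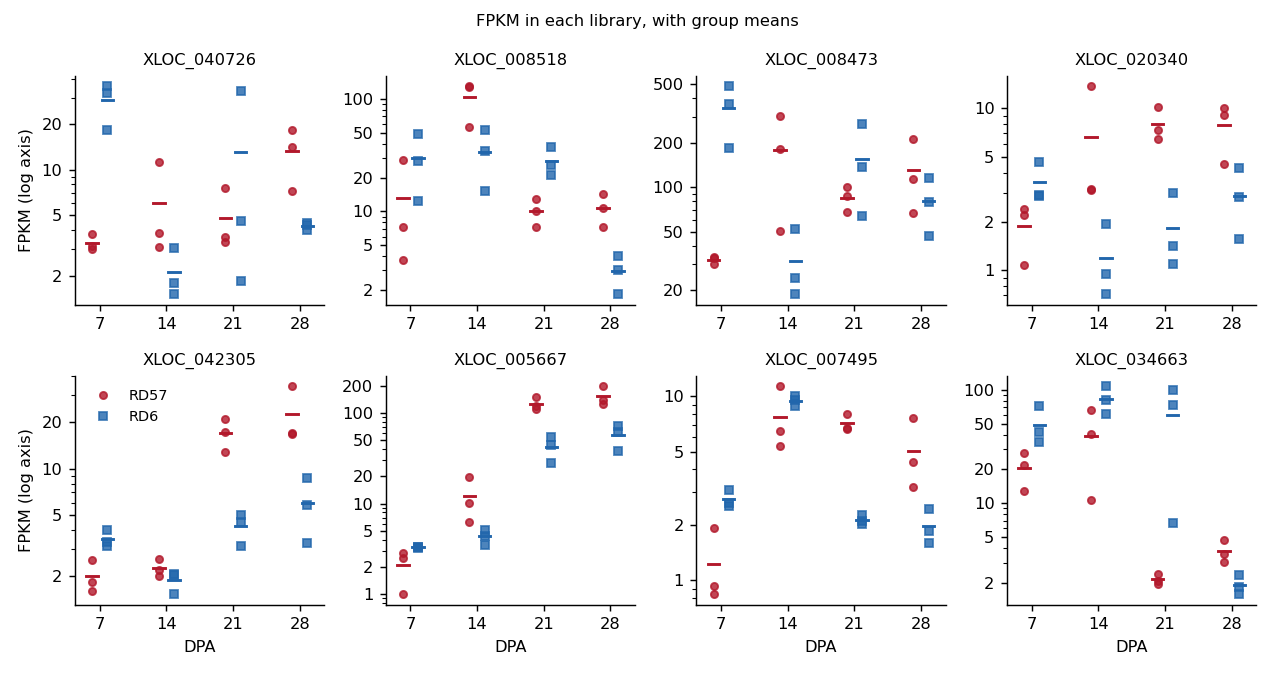
FPKM of 8 members in each library by DPA (log axis), RD57 as circles left of RD6 as squares, with a bar at the mean of the 3 libraries. In XLOC_042305 the cultivars differ by 0.22 on the log2 scale at 14 DPA and by 1.89 at 21 DPA, and in XLOC_007495 the change from 14 to 21 DPA is -0.05 in RD57 and -1.92 in RD6.

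The change of the cultivar difference between 14 and 21 DPA was tested as an interaction. It was positive, with RD57 gaining on RD6, in 11 members (6.72% of eligible genes, 12.2% of all genes) and negative in 7 (5.52% of eligible genes, 16.1% of all genes). The first count lies near the share of all genes and the second near that of eligible genes. Tested among genes above 0 in all 24 libraries, 4 members were positive and 4 negative. Without the 2 libraries that stood apart they were 7 and 1. Leaving out RD57 replicate 2 at 21 DPA gave 6 positive members, and leaving out RD6 replicate 3 at 14 DPA gave 7. The negative count was 12 without RD57 replicate 1 at 14 DPA. It was 4 without RD57 replicate 2, RD6 replicate 2 or RD6 replicate 3 at 14 DPA, and 4 without RD57 replicate 1 or RD6 replicate 2 at 21 DPA.

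XLOC_007495 had the largest gain. It had 7.99, 6.74 and 6.60 FPKM in RD57 at 21 DPA, against 2.11, 2.27 and 2.03 FPKM in RD6, and 11.3, 6.49 and 5.34 FPKM in RD57 at 14 DPA, against 8.80, 10.1 and 9.53 FPKM in RD6. RD6 fell between the stages by 1.92 ± 0.28 (log2, SE, limma adjusted p = 7.48e-06), while the change in RD57 was -0.05 ± 0.28 (adjusted p = 1.00). The interaction was 1.87 ± 0.39 (limma adjusted p = 0.000923).

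For comparison, the same rule with the signs turned was met by 297 genes, and its 100 highest scores had RD57 ahead at 7 DPA and RD6 ahead at 28 DPA. The switch to RD57 described here was thus met by fewer genes, 173. At 14 DPA the members' median of 0.38, with 74 genes above 0, stood beside a median of 0.31 with 67 genes above 0 in the other set, so that both sets leaned to RD57. Without RD57 replicate 2 the order of the medians turned, with 0.29 and 69 genes above 0 among the members and 0.35 and 65 genes in the other set. At 21 DPA 29 members passed as higher in RD57 and 1 as lower, against 4 and 12 genes of the other set, whose median was -0.52. In RD57, 42 members rose and 15 fell from 14 to 21 DPA, against 3 and 71 of the other set, and in RD6 38 rose and 12 fell, against 8 and 49. The choice at 28 DPA favours opposite directions at 21 DPA in the 2 sets. These are counts side by side for 2 sets chosen on the same libraries, and no test of the difference between them was made.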

How the data were processed

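The authors filtered reads with Fastp, Trimmomatic and SortMeRNA, aligned them with HISAT2 to the indica genome ASM465v1, assembled transcripts with Cufflinks and Cuffmerge, and deposited gene FPKM scaled by Cuffnorm. Tool versions are not given in the sources used here. They excluded values below 0.5 FPKM, required 2 replicates per gene, and filled missing values with the replicate mean, which narrows the spread. The smallest value above 0 was 0.50004. Read counts behind single values are unknown, so no counting interval was given. All 24 columns were matched to samples, and 0 were left without one.

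Here log2(FPKM + 0.5) was fitted with limma 3.58.1 in R 4.3.3, with 8 group means, 24 libraries and a trended prior variance, and tested on simulated data. The edgeR model of the study was not applied, since FPKM are not counts. P-values were adjusted by Benjamini-Hochberg over 26362 genes, and SE are from this fit. On this scale fold changes of genes with low FPKM are understated. Figures used Python 3.11.15 with matplotlib 3.10.9.

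The members, comparisons and alternatives were chosen with earlier results of these data known. Named genes are the 2 highest scores, the genes at the edge of the set, the 2 largest passing changes in each direction of each test, the highest score of each class, and the most abundant member. The highest scores of the last 2 classes are XLOC_003708 and XLOC_038490. A value was taken as filled when it equalled the mean of the other 2 replicates within a relative 1e-05.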

Additional observations from a re-analysis of the deposited data

Results flagged for a closer look

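The difference between RD57 and RD6 changed between 14 and 21 DPA by the interaction test in limma, with RD57 gaining in 11 members and losing in 7. Of eligible genes 6.72% gained and 5.52% lost, and of all genes 12.2% and 16.1%, so neither count stands clear of both shares. XLOC_007495 (1.87, adjusted p = 0.000923) and XLOC_003708 (1.76, adjusted p = 0.0252) had the largest gains. XLOC_003708 had 28.4, 20.8 and 25.1 FPKM in RD57 at 21 DPA, against 13.7, 7.70 and 16.5 FPKM in RD6, and 6.90, 5.88 and 14.3 FPKM in RD57 at 14 DPA, against 15.4, 14.4 and 14.1 FPKM in RD6. Its adjusted p was over 0.05 without any 1 of 4 libraries, up to 0.0789 without RD6 replicate 2 at 21 DPA, 0.0677 when only genes above 0 in all 24 libraries were tested, and 0.180 without the 2 libraries that stood apart.

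XLOC_015832 (-3.94, adjusted p = 0.00661) and XLOC_008518 (-3.10, adjusted p = 0.00864) had the largest losses. XLOC_015832 had 1.72, 1.22 and 1.89 FPKM in RD57 at 21 DPA, against 2.96, 7.63 and 5.29 FPKM in RD6, and at 14 DPA 1 RD57 library at 50.7 FPKM set its mean. The RD6 value of 5.29 FPKM equals the mean of the other 2 replicates and was filled in. With only the 14 and 21 DPA groups in the fit its adjusted p was 0.0574. Without the 2 libraries that stood apart the loss was -2.48 in XLOC_015832 (adjusted p = 0.0333) and -2.69 in XLOC_008518 (adjusted p = 0.0594).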

How the results depend on the processing

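Counts of members are given in the order higher and lower in RD57 at 14 DPA and at 21 DPA, higher and lower at 21 than at 14 DPA in RD57 and in RD6, and gaining and losing in the interaction. With only the compared groups in the fit the counts that moved by over 1.5 times were 2 and 4, 19 and 3, and 7 and 2. With a size of 2 or more on the log2 scale also required they were 2 and 1, 0 and 1, 15 and 5, 11 and 2, and 0 and 5. Among genes above 0 in all 24 libraries the interaction gave 4 and 4. Leaving out 1 library at a time gave ranges of 6 to 26 and 5 to 7, 18 to 31 and 1 to 3, 37 to 47 and 9 to 19, 32 to 40 and 8 to 14, and 6 to 10 and 4 to 12. The interaction's losing count was 12 without RD57 replicate 1 at 14 DPA and 4 without RD57 replicate 2, RD6 replicate 2 or RD6 replicate 3 at 14 DPA, or without RD57 replicate 1 or RD6 replicate 2 at 21 DPA. Without RD57 replicate 2 at 14 DPA and RD6 replicate 2 at 21 DPA, a setting chosen after seeing the data, 9 members were higher in RD57 at 14 DPA and 35 at 21 DPA, 9 were lower at 21 DPA in RD57, and 7 gained and 1 lost in the interaction. Quantile normalization moved the median change from 14 to 21 DPA in RD57 over eligible genes to 0.23 and that of the interaction to 0.12. With that shift included in the counts, 48 members rose and 11 fell in RD57, and 2 members were lower in RD57 at 21 DPA. Other pseudocounts (0.1 and 1), centring, a constant prior variance and leaving out filled values, the last also chosen after seeing the data, moved no count by over 1.5 times. The cause was not tested.

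Replicate numbers did not pair the libraries. Same-numbered libraries of the 2 cultivars deviated with r from -0.33 to 0.27, and with the replicate block the counts were 19 and 7, 28 and 1, 44 and 15, 39 and 12, and 11 and 7. Of 328 values of 19 results on named genes under the alternatives, 311 kept their call, 17 lost it and 0 changed sign. Between 89 and 100 of the members stayed within the rule's limits when 1 library at 7 or 28 DPA was left out, and 94 did after quantile normalization. The depth behind single FPKM values is unknown.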
